A study of Mus musculus with 5 samples.

Results

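The Hox genes were followed in marrow stromal cells that descend from fetal perichondrial or cartilage cells. The members were all protein-coding genes whose mouse symbol is Hoxa, Hoxb, Hoxc or Hoxd followed by a number, with no filter on low counts. Of 39 such genes in the annotation, 34 were analysed here, and Hoxb13, Hoxd1, Hoxd10, Hoxd12 and Hoxd13 were not analysed here. Bulk RNA-seq was performed on Cxcl12-GFPhigh tdTomato+ cells, the Cxcl12-abundant reticular (CAR) cells of the marrow, sorted from femurs at P21 after 1 tamoxifen pulse at E12.5. The 3 Dlx5CE-E12.5 libraries came from Cxcl12(GFP/+); Dlx5(CreER/+); R26R(tdTomato/+) mice, in which Cre is expressed under Dlx5, a gene of the fetal perichondrium. The 2 Fgfr3CE-E12.5 libraries, numbered replicates 2 and 3, came from Cxcl12(GFP/+); Fgfr3-iCreER; R26R(tdTomato/+) mice, in which Cre is expressed under Fgfr3, a gene of fetal chondrocytes. All 5 libraries thus carried the Cxcl12-GFP allele and the tdTomato reporter. Littermates of a genotype were pooled before sorting, the distal epiphyseal growth plates were removed, and the proximal ends of the femurs were cut off. Hox levels were compared to ask whether the descendants of these lineages, in the same bone and at the same age, differ in their positional code. In the paper's histology at P21, Dlx5CE-E12.5 descendants lay mainly in the diaphyseal marrow and Fgfr3CE-E12.5 descendants mainly in the metaphyseal marrow. Site along the femur thus cannot be told apart from lineage.

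Hox proteins are homeodomain transcription factors that give cells an identity along the body axis and along the limb. The genes lie in 4 clusters, in each of which paralogue group 1 is at the 3′ end and group 13 at the 5′ end, and genes nearer the 5′ end are in general used later and farther toward the tail or the limb tip. In the limb, groups 9 and 10 of the Hoxa and Hoxd clusters pattern the upper segment, with Hoxc genes taking part in the hindlimb, group 11 patterns the middle segment, and group 13 patterns the hand and foot. Adult skeletal stromal cells keep much of this regional pattern, and some members, such as Hoxa9 and Hoxb4, are also active in blood-forming cells.

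Total counts were 22035650 to 32563758 in Dlx5CE-E12.5 libraries and 56355203 to 58166285 in Fgfr3CE-E12.5 libraries. Levels below are CPM, counts scaled to the TMM-adjusted size of each library, and changes are log2 fold changes of Fgfr3CE-E12.5 over Dlx5CE-E12.5 cells. A gene was called when edgeR's quasi-likelihood test gave a Benjamini-Hochberg adjusted p under 0.05 and the change exceeded 2-fold. Adjusted p-values from this test are given below as edgeR adjusted p, and they measure only the spread between these pools. By the study's methods the lineages were also sequenced on different instruments with different read lengths, which cannot be told apart from lineage. All 12 stromal markers had counts in every library, and their summed level was 37700 to 39300 CPM in Dlx5CE-E12.5 and 15000 to 17000 CPM in Fgfr3CE-E12.5 libraries. The 12 pan-leukocyte markers summed to 574 to 731 CPM in Dlx5CE-E12.5 libraries, to 1700 CPM in Fgfr3CE-E12.5 replicate 2 and to 3650 CPM in replicate 3, with 11 of 12 called higher in Fgfr3CE-E12.5 cells. The 8 chondrocyte markers summed to 181 to 187 CPM in Dlx5CE-E12.5 libraries, to 3290 CPM in Fgfr3CE-E12.5 replicate 2 and to 469 CPM in replicate 3, with 6 of 8 called higher and with Col9a1 and Matn1 at 0 in every Dlx5CE-E12.5 library. Most of the Dlx5CE-E12.5 sum came from Sox9 (121 to 129 CPM) and Col11a1 (47.7 to 57.4 CPM), which were not called. Col2a1 had 0.788 to 7.29 CPM in Dlx5CE-E12.5 libraries and 2690 and 355 CPM in Fgfr3CE-E12.5 replicates 2 and 3. The 8 erythroid markers summed to 18500 to 37700 CPM in Dlx5CE-E12.5 and to 14400 and 21400 CPM in Fgfr3CE-E12.5 libraries. Of these 8, 0 were called higher and 2 lower in Fgfr3CE-E12.5 cells. The part of these marker differences in the Hox results was not tested. Fewer cells of a type and less RNA per cell cannot be told apart in bulk samples.

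The summed Hox level overlapped between the lineages, and Hoxa11 and Hoxa13 were the only members called. Over the 34 genes, 2 were called higher in Fgfr3CE-E12.5 cells, where 13.3% of all 17120 features tested were, and 0 were called higher in Dlx5CE-E12.5 cells, where 10% of all features were. At an unadjusted p under 0.05 with a change over 2-fold, 4 members were higher in Fgfr3CE-E12.5 and 2 in Dlx5CE-E12.5 cells, where 15.2% and 11.5% of all features were. With no fold limit 4 and 6 members were, and 3843 and 3442 of all 17120 features were. The number called higher in Dlx5CE-E12.5 cells was 1 by edgeR's exact test and 2 by DESeq2. Every Fgfr3CE-E12.5 library lay above every Dlx5CE-E12.5 library for 9 members, against 30.6% of all features, and every Dlx5CE-E12.5 library lay above for 10 members, against 27.4% of all features. The median log2 fold change was -0.22 over the 34 members and 0.04 over all features tested. The 34 genes together summed to 260, 300 and 339 CPM in Dlx5CE-E12.5 replicates 1 to 3 and to 270 and 209 CPM in Fgfr3CE-E12.5 replicates 2 and 3, and these ranges overlap.

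The members differed widely in level. Of the 34, 23 had counts in all 5 libraries and 11 were at 0 in at least 1 library. A level of 1 CPM or more in 2 or more libraries was reached by 19 genes, of which 2 were called higher in Fgfr3CE-E12.5 cells, where 16.5% of all 13235 features at that level were, and 0 in Dlx5CE-E12.5 cells, where 12.5% were. The stricter filter of the study, 10 CPM or more in 2 or more libraries, kept 9 Hox genes. Per kb of exon, Hoxa10 had the highest level of all members, at 30.8 CPM per kb in Dlx5CE-E12.5 and 26.4 CPM per kb in Fgfr3CE-E12.5 cells, followed in both by Hoxa9 and Hoxc10. In Dlx5CE-E12.5 cells Hoxc6, Hoxc9, Hoxa7 and Hoxc4 came next, at 7.80, 6.46, 4.55 and 4.28 CPM per kb. In Fgfr3CE-E12.5 cells Hoxa11 came next, at 5.11 CPM per kb and rank 4, while its 0.976 CPM per kb in Dlx5CE-E12.5 cells gave it rank 17. Hoxa10 and then Hoxa9 also led per kb of the longest transcript, but the order below them depended on the length used. On that length Hoxc6 stood above Hoxc10 in Dlx5CE-E12.5 cells, at 11.9 against 10.2 CPM per kb. In Fgfr3CE-E12.5 cells Hoxc6 and Hoxa7, at 5.98 and 5.51 CPM per kb of the longest transcript, stood above Hoxc10 at 5.45, and Hoxa11 stood at rank 6. Per kb of exon, Hoxb2 stood at rank 8 in Fgfr3CE-E12.5 and rank 12 in Dlx5CE-E12.5 cells, at 3.76 and 1.70 CPM per kb. Genes of groups 9 and 10, which pattern the upper limb segment that holds the femur, held the first 3 ranks per kb of exon in both lineages, and the first 2 per kb of the longest transcript.

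**Figure D1:**
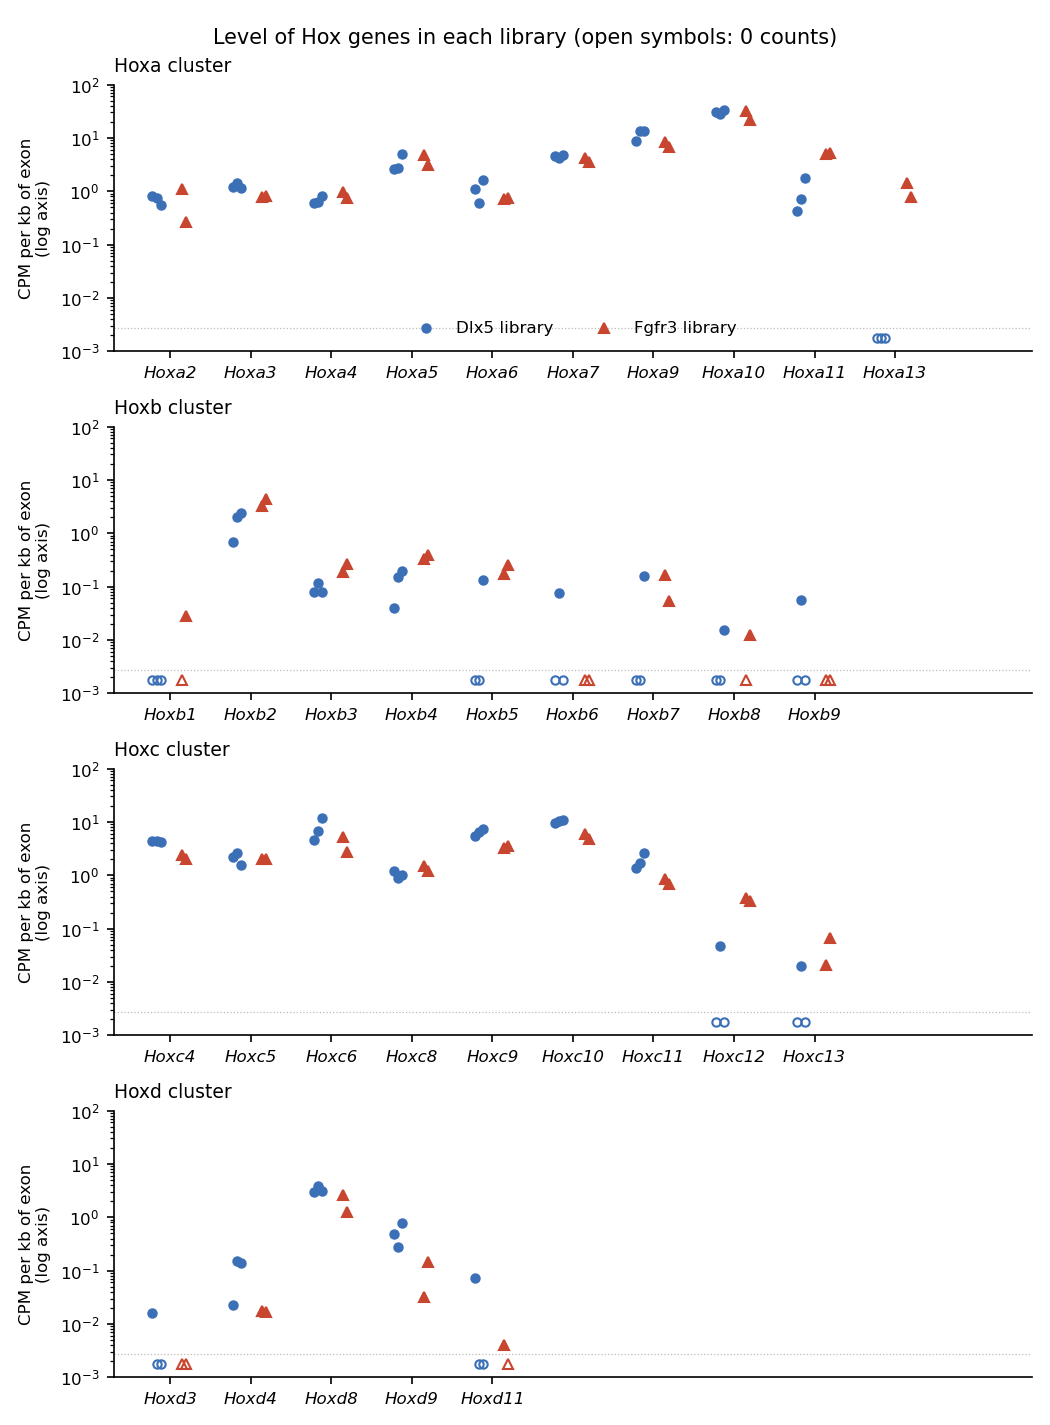
Level of the Hox genes in each library, in CPM per kb of exon on a log axis, with the genes of each cluster ordered by paralogue group. Circles are the 3 Dlx5CE-E12.5 libraries, triangles the 2 Fgfr3CE-E12.5 libraries, and open symbols below the dotted line mark 0 counts. Hoxa10 is at the top in both lineages, and Hoxa13 is at 0 in the 3 Dlx5CE-E12.5 libraries only.

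The Hoxa cluster lies on the minus strand of chromosome 6 (mm10), and Hoxa13, at 52257694 to 52260880, is its 5′ end. It supplied 68.1% ± 1.32 of all Hox counts in Dlx5CE-E12.5 cells (SD, n = 3) and 71.7% ± 2.55 in Fgfr3CE-E12.5 cells (SD, n = 2). Of its 11 genes, 2 were called, both higher in Fgfr3CE-E12.5 cells, and its median log2 fold change was -0.22. The other 9 genes had log2 fold changes between -0.66 and 0.33, and of these Hoxa9 had an unadjusted p under 0.05 by edgeR's test.

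Hoxa10, the group 10 gene that patterns the upper limb segment and vertebral column, had 98.6, 93.3 and 111 CPM in the Dlx5CE-E12.5 libraries and 104 and 69.3 CPM in the Fgfr3CE-E12.5 libraries. The groups overlap, with Fgfr3CE-E12.5 replicate 3 the lowest library. Its log2 fold change was -0.22 (SE 0.20, edgeR adjusted p = 0.423). Hoxa9, its neighbour 9.8 kb away by start site, had 49.6, 75.7 and 76.4 CPM in Dlx5CE-E12.5 and 47.0 and 38.3 CPM in Fgfr3CE-E12.5 libraries. All Dlx5CE-E12.5 libraries were above both Fgfr3CE-E12.5 libraries, the nearest by a small margin. Its log2 fold change was -0.66 (SE 0.23, edgeR adjusted p = 0.059).

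Hoxa11, the group 11 gene that patterns the middle limb segment, is the next gene toward the 5′ end, 5.0 kb from Hoxa10 by start site. Its counts were 29, 33 and 99 in the Dlx5CE-E12.5 libraries and 677 and 732 in the Fgfr3CE-E12.5 libraries, or 0.984, 1.61 and 4.10 CPM against 11.4 and 12.0 CPM. The groups do not overlap, the Fgfr3CE-E12.5 libraries are close to each other, and Dlx5CE-E12.5 replicate 3 is the highest of its group. Hoxa11 rose in Fgfr3CE-E12.5 cells by 2.39 on the log2 scale (SE 0.54, edgeR adjusted p = 0.0118). Without Dlx5CE-E12.5 replicate 3 the change was 3.18 (edgeR adjusted p = 0.0017), and over 15 alternatives the adjusted p ranged from 0.000199 to 0.0479. A test against a change of 2-fold (glmTreat) gave an adjusted p of 0.0642, so that a change above 2-fold was not shown. About 35.0% of the exonic sequence of Hoxa11 is shared with Hoxa11os, a non-coding RNA on the opposite strand. The library kits do not mark strand, so reads from this shared part cannot be separated by strand. The strand setting of the counting is not given in the sources used here.

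Hoxa13, the group 13 gene of the hand and foot, hindgut and genital tubercle, lies at the 5′ end of the cluster, 15.1 kb from Hoxa11 by start site. It had 0 counts in all 3 Dlx5CE-E12.5 libraries and 212 and 118 counts in the Fgfr3CE-E12.5 libraries, which are 3.57 and 1.93 CPM. The groups do not overlap, and replicate 2 is the higher of the Fgfr3CE-E12.5 libraries. A floor of 3 counts in each Dlx5CE-E12.5 library is 0.102 to 0.146 CPM. Against the mean of this floor, Hoxa13 was at least 22.2-fold higher in the mean of the Fgfr3CE-E12.5 libraries (edgeR adjusted p = 0.00253). The bound was 28.8-fold with replicate 2 alone and 15.6-fold with replicate 3 alone. This floor covers counting error only, since the reads carry no molecular identifiers. Over 14 alternatives the adjusted p of Hoxa13 ranged from 5.95e-11 to 0.017, and under the study's filter of 10 CPM the gene was not tested. No exonic sequence of Hoxa13 overlaps another annotated gene. Its per-kb level in Fgfr3CE-E12.5 cells, 1.11 CPM per kb, was well under that of Hoxa10.

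The start-site sequences of these neighbours are shown because Hoxa11 and Hoxa13 differed between lineages while Hoxa10, which lies beside them, did not pass the test. Each is the 250 bases before a RefSeq start site on GRCm38.p6, 5′ to 3′ on the gene's strand, and Hoxa10 has an upstream and a downstream start. Capitals mark, on either strand, the GC box GGGCGG, the CCAAT box CCAAT and the TATA box TATAAA, which touch without sharing a base where they meet.
Hoxa10 upstream promoter, chr6:52240855-52241104, minus strand: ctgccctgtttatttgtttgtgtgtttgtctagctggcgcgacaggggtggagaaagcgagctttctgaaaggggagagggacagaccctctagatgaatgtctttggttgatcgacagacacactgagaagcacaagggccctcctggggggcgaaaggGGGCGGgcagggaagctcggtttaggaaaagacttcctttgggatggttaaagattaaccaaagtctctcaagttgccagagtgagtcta
Hoxa10 downstream promoter, chr6:52234940-52235189, minus strand: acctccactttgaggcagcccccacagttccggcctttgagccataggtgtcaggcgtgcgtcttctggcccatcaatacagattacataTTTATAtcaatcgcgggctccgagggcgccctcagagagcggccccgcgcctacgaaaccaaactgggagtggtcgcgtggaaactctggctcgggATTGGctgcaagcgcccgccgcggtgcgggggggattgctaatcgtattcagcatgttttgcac
Hoxa11 promoter, chr6:52245811-52246060, minus strand: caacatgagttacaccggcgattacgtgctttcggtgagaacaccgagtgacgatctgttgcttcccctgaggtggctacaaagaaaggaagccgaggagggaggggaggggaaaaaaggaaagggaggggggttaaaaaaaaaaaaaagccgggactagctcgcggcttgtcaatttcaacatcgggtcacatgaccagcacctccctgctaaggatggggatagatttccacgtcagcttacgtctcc
Hoxa13 promoter, chr6:52260881-52261130, minus strand: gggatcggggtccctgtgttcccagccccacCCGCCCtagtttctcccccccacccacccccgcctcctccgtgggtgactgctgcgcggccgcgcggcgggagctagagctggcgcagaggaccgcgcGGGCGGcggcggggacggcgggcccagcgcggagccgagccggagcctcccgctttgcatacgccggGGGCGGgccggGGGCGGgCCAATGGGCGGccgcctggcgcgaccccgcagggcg
The Hoxa13 promoter held 5 GC boxes, 1 CCAAT box and 35 CpG dinucleotides and was 80.0% G or C. The Hoxa11 promoter held none of these 3 motifs and 13 CpG dinucleotides. The upstream Hoxa10 promoter held 1 GC box and 7 CpG dinucleotides, and the downstream one held 1 CCAAT box, 1 TATA box and 20 CpG dinucleotides. Among 32851 RefSeq promoters of this length, 32.7% held a GC box, 33.8% a CCAAT box and 12.4% a TATA box, and the median number of CpG dinucleotides was 6. Promoters were found for 22 of the 39 Hox genes. The matches describe these windows only, and no binding or methylation was measured.

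Because Hoxa10 lies beside these genes, counts were also set against it within each library, which removes the scaling between libraries. Per 100 counts of Hoxa10, Hoxa11 had 0.998, 1.73 and 3.71 counts in the Dlx5CE-E12.5 libraries and 11 and 17.3 counts in the Fgfr3CE-E12.5 libraries. Hoxa13 had 0 in the Dlx5CE-E12.5 libraries and 3.45 and 2.78 counts per 100 of Hoxa10 in the Fgfr3CE-E12.5 libraries. Neither set of values overlaps between the lineages. In the Fgfr3CE-E12.5 libraries, replicate 2 had the higher Hoxa13 ratio and replicate 3 the higher Hoxa11 ratio. Hoxa11 was at 11.4 and 12.0 CPM in replicates 2 and 3, and Hoxa10 was at 104 and 69.3 CPM. The order of the Hoxa11 ratios thus came mostly from Hoxa10. The chondrocyte marker sum was higher in replicate 2 and the leukocyte marker sum in replicate 3, and a link to these ratios was not tested.

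**Figure D2:**
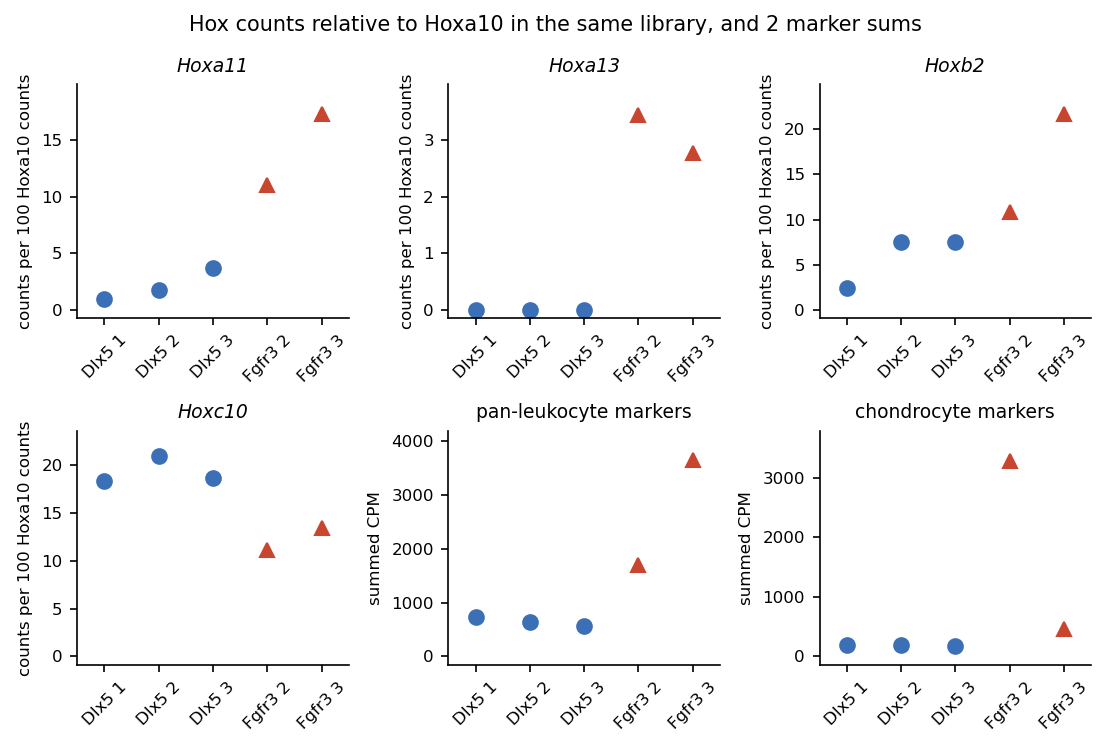
Counts of Hoxa11, Hoxa13, Hoxb2 and Hoxc10 per 100 counts of Hoxa10 in the same library, and the summed CPM of 12 pan-leukocyte and 8 chondrocyte markers, on linear axes. Circles are Dlx5CE-E12.5 and triangles Fgfr3CE-E12.5 libraries. Hoxa11 and Hoxa13 are higher in both Fgfr3CE-E12.5 libraries, Hoxc10 is lower, and the markers differ between the Fgfr3CE-E12.5 libraries.

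The 3′ and middle genes of the Hoxa cluster did not pass the test. Hoxa7, a group 7 gene of the trunk, had 12.2 to 13.6 CPM in Dlx5CE-E12.5 and 10.1 and 12.3 CPM in Fgfr3CE-E12.5 libraries (log2 fold change -0.23, SE 0.22, edgeR adjusted p = 0.463). Hoxa5, a gene of the neck and upper thorax, had 4.95, 5.13 and 9.33 CPM against 8.78 and 5.74 CPM (0.17, SE 0.38, edgeR adjusted p = 0.769). Hoxa3, a gene of the pharyngeal arches, had 6.84 to 8.69 CPM in Dlx5CE-E12.5 libraries, all above the 4.72 and 4.97 CPM of the Fgfr3CE-E12.5 libraries (-0.64, SE 0.28, edgeR adjusted p = 0.127). Of these genes only Hoxa3 had groups that do not overlap. Hoxa2, the gene that sets second-arch identity, had 0.995 to 1.46 CPM against 0.474 and 1.94 CPM (-0.06, SE 0.74, edgeR adjusted p = 0.958). Hoxa4 had 0.950 to 1.29 CPM against 1.18 and 1.55 CPM (0.33, SE 0.58, edgeR adjusted p = 0.701). Hoxa6 had 11 to 34 counts in the Dlx5CE-E12.5 libraries and 37 and 40 in the Fgfr3CE-E12.5 libraries, where depth was greater.

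**Figure D3:**
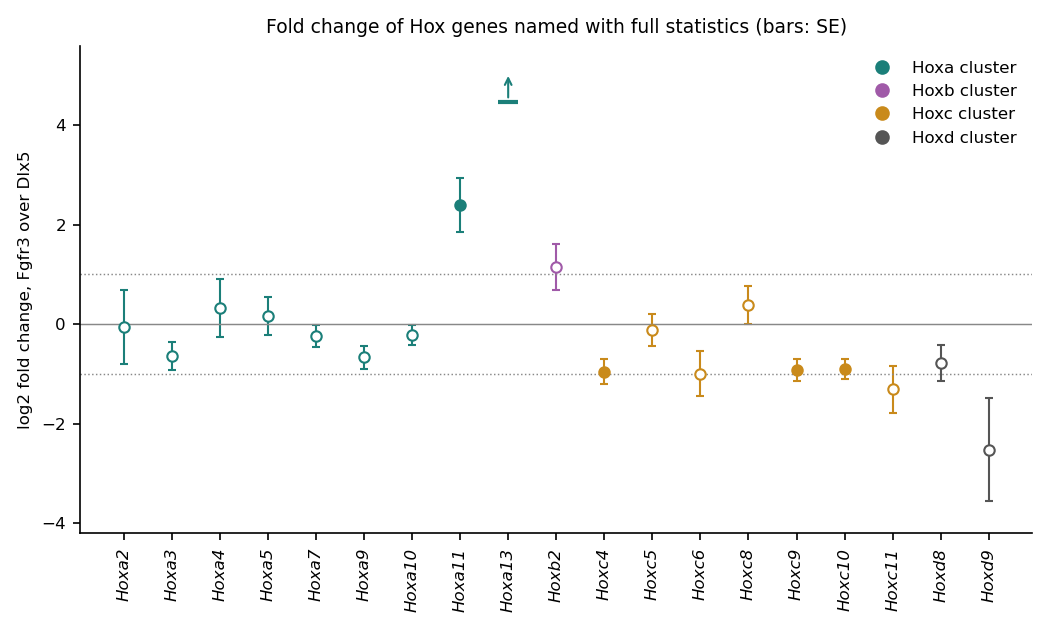
Log2 fold change of Fgfr3CE-E12.5 over Dlx5CE-E12.5 cells for Hox genes with a mean CPM of at least 1 in a group, ordered by cluster and paralogue group. Bars are SE, filled circles have an edgeR adjusted p under 0.05, and dotted lines mark 2-fold. The arrow for Hoxa13 starts at 22.2-fold, the lower bound from the mean of the Fgfr3CE-E12.5 libraries. Hoxa11 and Hoxa13 are above the others, and Hoxc4, Hoxc9 and Hoxc10 lie just short of 2-fold in the other direction.

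Hoxc4, Hoxc9 and Hoxc10 were lower in Fgfr3CE-E12.5 cells at an adjusted p under 0.05 by edgeR's test, each by less than 2-fold. The cluster lies on the plus strand of chromosome 15 at 102921103 to 103036852 and supplied 26.1% ± 0.737 of Hox counts in Dlx5CE-E12.5 cells (SD, n = 3) and 19.2% ± 0.566 in Fgfr3CE-E12.5 cells (SD, n = 2). Its 9 genes summed to 66.4, 77.3 and 91.3 CPM in Dlx5CE-E12.5 and to 50.7 and 40.9 CPM in Fgfr3CE-E12.5 libraries, with no overlap. Their median log2 fold change was -0.90, and 3 of the 9 had an adjusted p under 0.05, where 33.0% of all features did.

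Hoxc10, the group 10 gene of the lumbar axis and hindlimb, had 18.1, 19.5 and 20.6 CPM in Dlx5CE-E12.5 and 11.5 and 9.29 CPM in Fgfr3CE-E12.5 libraries (log2 fold change -0.90, SE 0.21, edgeR adjusted p = 0.0135). Hoxc9, the group 9 gene of the thoracic axis, had 13.2, 15.9 and 18.0 CPM against 8.04 and 8.49 CPM (-0.92, SE 0.23, edgeR adjusted p = 0.0183). Hoxc4, at the 3′ end of the cluster, had 11.1, 11 and 10.9 CPM against 6.19 and 5.17 CPM (-0.95, SE 0.25, edgeR adjusted p = 0.0199). In each of these genes the groups do not overlap, and for Hoxc4 the Dlx5CE-E12.5 libraries are nearly equal. With any of several libraries left out the adjusted p was above 0.05: it reached at most 0.0828 for Hoxc4, 0.0794 for Hoxc9 and 0.0575 for Hoxc10, and their changes kept their sign in all 15 alternatives. Per 100 counts of Hoxa10, Hoxc10 had 18.3, 20.9 and 18.6 counts in Dlx5CE-E12.5 and 11.1 and 13.4 counts in Fgfr3CE-E12.5 libraries, with no overlap. Hoxc9 had 13.4, 17.1 and 16.3 counts against 7.76 and 12.2 counts per 100 of Hoxa10, also without overlap. Transcripts of Hoxc5 overlap 8.70% of the exonic sequence of Hoxc10.

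Hoxc11, the group 11 gene of this cluster and a paralogue of Hoxa11, had 2.82, 3.42 and 5.27 CPM in Dlx5CE-E12.5 and 1.70 and 1.37 CPM in Fgfr3CE-E12.5 libraries. All Dlx5CE-E12.5 libraries were higher, the opposite order to that of Hoxa11. Its log2 fold change was -1.31 (SE 0.47, edgeR adjusted p = 0.0656), so it was not called, though 5 of 14 alternatives called it, with adjusted p-values from 0.0181 to 0.253 over the 14. Hoxc12 had 0, 1 and 0 counts in the Dlx5CE-E12.5 libraries and 23 and 21 counts in the Fgfr3CE-E12.5 libraries, a ratio of 27.1 after scaling (95% counting interval 4.61 to 1090, edgeR adjusted p = 0.077). Hoxc13 had 0, 1 and 0 counts against 3 and 10 counts, a ratio of 8 (95% counting interval 1.2 to 340). Neither of these 5′ genes was called. For Hoxc13 the nearest libraries of the groups hold 1 and 3 counts, at 0.0488 and 0.0506 CPM, so the order of these libraries is not a measurable difference at this depth.

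Hoxc6 was the most variable gene of the cluster, with 10.9, 16.6 and 28.9 CPM in Dlx5CE-E12.5 and 12.4 and 6.48 CPM in Fgfr3CE-E12.5 libraries (log2 fold change -0.99, SE 0.45, edgeR adjusted p = 0.135). The groups overlap, and without Dlx5CE-E12.5 replicate 3 the change was -0.54. Hoxc5 had 4.85 to 8.20 CPM against 6.14 and 6.18 CPM (-0.11, SE 0.32, edgeR adjusted p = 0.819). Hoxc8, a gene of the thoracic axis, was the gene of the middle of the cluster with the higher level in both Fgfr3CE-E12.5 libraries, at 4.25 and 3.45 CPM against 2.54 to 3.43 CPM (0.39, SE 0.38, edgeR adjusted p = 0.463).

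Hoxb genes were at low levels, and none was called by edgeR's test, the exact test or DESeq2. By edgeR's test 1 of 9, Hoxb2, was higher in Fgfr3CE-E12.5 cells at an unadjusted p under 0.05, as 3843 of all 17120 features were. The cluster lies on the plus strand of chromosome 11 at 96194316 to 96368256 and supplied 2.25% ± 0.991 of Hox counts in Dlx5CE-E12.5 cells (SD, n = 3) and 6.84% ± 2.56 in Fgfr3CE-E12.5 cells (SD, n = 2). Its summed level was 2.88, 8.20 and 9.83 CPM in Dlx5CE-E12.5 and 13.6 and 18.1 CPM in Fgfr3CE-E12.5 libraries. These sums do not overlap, and Dlx5CE-E12.5 replicate 1 is well below the others. Hoxb2, a hindbrain gene that is also active in blood cells, accounted for most of the cluster, with 2.44, 7.03 and 8.33 CPM against 11.2 and 15.1 CPM (log2 fold change 1.15, SE 0.47, edgeR adjusted p = 0.101). Hoxb3 had 8 to 10 counts in the Dlx5CE-E12.5 libraries and 48 and 68 in the Fgfr3CE-E12.5 libraries (1.31, SE 0.78, edgeR adjusted p = 0.240). Hoxb4, which can expand blood stem cells when forced on, had 3 to 12 counts against 51 and 62 (1.51, SE 0.92, edgeR adjusted p = 0.250). Hoxb5 had 0, 0 and 9 counts against 29 and 44 (2.25, SE 1.62, edgeR adjusted p = 0.328).

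The CPM of Hoxb2, Hoxb3, Hoxb4 and Hoxb5 was higher in both Fgfr3CE-E12.5 libraries than in any Dlx5CE-E12.5 library. This order held for 4 of the 9 Hoxb genes and for 30.6% of all features. In each of these 4 genes replicate 3 was the higher Fgfr3CE-E12.5 library. Replicate 3 also had the higher leukocyte marker sum. The Dlx5CE-E12.5 libraries ran the other way. Their leukocyte marker sums were 731, 644 and 574 CPM in replicates 1 to 3, and their Hoxb sums were 2.88, 8.20 and 9.83 CPM. Ptprc encodes the leukocyte antigen CD45. Its counts were 3997 in Fgfr3CE-E12.5 replicate 2 and 7174 in replicate 3 against 1396, 756 and 672 in Dlx5CE-E12.5 replicates 1 to 3 (log2 fold change 1.30, edgeR adjusted p = 0.01). Whether the Hoxb levels follow leukocyte content was not tested. Hoxb3os, an antisense RNA, overlaps 52.9% of the exonic sequence of Hoxb3 and 27.3% of that of Hoxb2, so reads from these genes may not be separable. The remaining genes of the cluster were near 0, with at most 15 counts in any library for Hoxb7, at most 4 for Hoxb1, at most 3 for Hoxb6 and Hoxb9 and at most 2 for Hoxb8. A difference in Hoxb1, Hoxb6, Hoxb8 or Hoxb9 was not detectable at this depth.

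Hoxd genes were at low levels other than Hoxd8, and all 5 analysed members had negative log2 fold changes without a call by edgeR's test. By that test 1 of 5, Hoxd9, was lower in Fgfr3CE-E12.5 cells at an unadjusted p under 0.05, and DESeq2 called it. At that p 3442 of all 17120 features were lower in Fgfr3CE-E12.5 cells. The cluster lies on the plus strand of chromosome 2 at 74668310 to 74765142 and supplied 3.58% ± 0.422 of Hox counts in Dlx5CE-E12.5 (SD, n = 3) and 2.26% ± 0.643 in Fgfr3CE-E12.5 cells (SD, n = 2). Hoxd8 had 8.28, 10.6 and 8.46 CPM in Dlx5CE-E12.5 and 7.18 and 3.40 CPM in Fgfr3CE-E12.5 libraries (log2 fold change -0.78, SE 0.37, edgeR adjusted p = 0.147). All Dlx5CE-E12.5 libraries were higher, and without Fgfr3CE-E12.5 replicate 2 the change was -1.42 (edgeR adjusted p = 0.0261, with a range of 0.0261 to 0.483 over 14 alternatives). Hoxd9, a group 9 gene of the upper limb segment, had 31, 12 and 40 counts against 4 and 19 counts, or 1.05, 0.586 and 1.66 CPM against 0.0674 and 0.311 CPM (-2.52, SE 1.04, edgeR adjusted p = 0.104). Hoxd4 had 2, 9 and 10 counts against 3 and 3. Hoxd11, the Hoxd gene of the middle segment, had 9, 0 and 0 counts against 1 and 0, and Hoxd3 had 2, 0 and 0 counts against 0 and 0. The Hoxd11 ratio of Fgfr3CE-E12.5 over Dlx5CE-E12.5 cells was 0.0683 after scaling (95% counting interval 0.00156 to 0.493). Its 9 counts all came from Dlx5CE-E12.5 replicate 1, and it was not called (edgeR adjusted p = 0.343). A difference in Hoxd3 was not detectable at this depth. Other annotated genes overlap 62.8% of the exonic sequence of Hoxd3 and 52.3% of that of Hoxd4, so their reads may not be separable.

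By paralogue group, groups 1 to 8 supplied 29.7% ± 0.603 of Hox counts in Dlx5CE-E12.5 (SD, n = 3) and 31.4% ± 1.2 in Fgfr3CE-E12.5 cells (SD, n = 2). Groups 9 and 10 supplied 68.3% ± 1.17 and 61.6% ± 2.05, and groups 11 to 13 supplied 2.02% ± 0.647 and 6.96% ± 0.856. The libraries of the lineages do not overlap in any of these shares, which together make 100% of each library and so are not separate results. For groups 1 to 8 the nearest shares were 30.3% and 30.6%. The summed level of groups 1 to 8 overlapped, at 75.7, 89.3 and 103 CPM in Dlx5CE-E12.5 and 82.5 and 67.5 CPM in Fgfr3CE-E12.5 libraries. All 6 members of groups 9 and 10 had negative log2 fold changes, with a median of -0.91. Of these, Hoxb9 had 3 counts in Dlx5CE-E12.5 replicate 2 and 0 in every other library, which is no measurable difference. Hoxa10, at -0.22, overlapped between the lineages. By edgeR's test 2 of the 6 had an adjusted p under 0.05, where 33.0% of all features did. Of the 6 members of groups 11 to 13, 4 had higher levels in both Fgfr3CE-E12.5 libraries than in every Dlx5CE-E12.5 library, as 30.6% of all features did. Of these Hoxa11 and Hoxa13 were called, and Hoxc12 and Hoxc13 were not, and the order of Hoxc13 rests on the 1 and 3 counts of its nearest libraries. In group 11 the direction differed between clusters, with Hoxa11 higher and Hoxc11 lower in both Fgfr3CE-E12.5 libraries. The 22 members of groups 1 to 8 had a median log2 fold change of -0.08, and Hoxc4 alone among them had an adjusted p under 0.05 by edgeR's test.

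**Figure D4:**
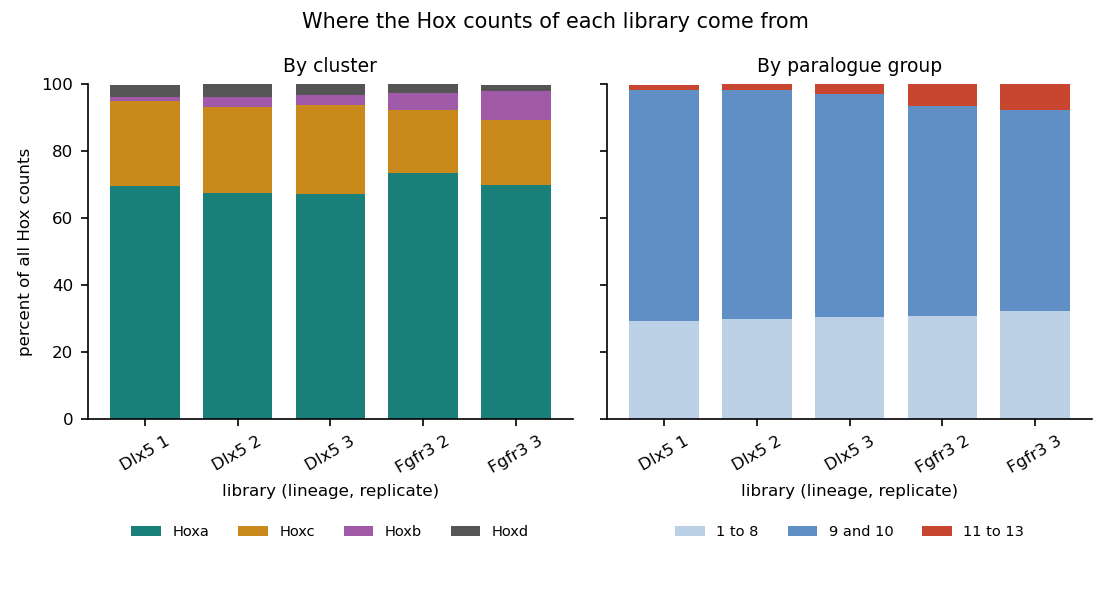
Percent of all Hox counts in each library that came from each cluster (left) and from paralogue groups 1 to 8, 9 and 10, and 11 to 13 (right). Bars are single libraries and start at 0. Hoxa genes and groups 9 and 10 make up the largest shares in every library, and groups 11 to 13 take 6.35% and 7.56% in the Fgfr3CE-E12.5 libraries.

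Non-coding transcripts and other annotated features inside the clusters were fitted together with all 30046 features. Of 27 such features, of which 3 are annotated as protein-coding, 5 were called higher in Fgfr3CE-E12.5 and 2 in Dlx5CE-E12.5 cells, against 10.5% and 15.3% of all features in this fit. Hoxa11os had 63, 56 and 78 counts in the Dlx5CE-E12.5 libraries and 368 and 324 counts in the Fgfr3CE-E12.5 libraries (log2 fold change 1.28, SE 0.30, edgeR adjusted p = 0.0203), the same direction as Hoxa11. Hoxb3os had 19, 33 and 17 counts against 231 and 276 counts (2.30, SE 0.48, edgeR adjusted p = 0.0136), the same direction as Hoxb2 and Hoxb3. Hoxa11os and Hoxb3os share 36.6% and 73.8% of their 50-base windows with other genes, Hoxa11 and Hoxb3 among them. The kits do not mark strand, so these directions are not independent of those of the Hox genes. Hoxaas2, a non-coding transcript on the strand opposite to the Hoxa genes, had 115, 145 and 205 counts against 81 and 81 counts (-2.07, SE 0.42, edgeR adjusted p = 0.0125). Hotair, the Hoxc-cluster RNA between Hoxc11 and Hoxc12, had 10, 6 and 5 counts against 66 and 28 and was not called (1.66, SE 0.63, edgeR adjusted p = 0.0975). The remaining calls included Gm27868, Gm27477 and Gm27543, short annotated RNAs of the Hoxa cluster with at most 38 counts in a library. All 50-base windows of Gm27868 lie in the non-coding RNA Hotairm1, and all those of Gm27543 lie in Hoxa11os. The last call was Gm11539, a processed pseudogene in the Hoxb cluster that shares 41.3% of its 50-base windows with other genes.

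The genes that flank the clusters were not called. Of 11 tested, 3 were higher in Fgfr3CE-E12.5 and 1 in Dlx5CE-E12.5 cells at an unadjusted p under 0.05 by edgeR's test. Of all 17120 features 3843 and 3442 were, and the median log2 fold change of the 11 was 0.07. By edgeR's test Skap2 on the 3′ side of the Hoxa cluster (0.82, adjusted p = 0.0106) and Mtx2 on the 3′ side of the Hoxd cluster (0.52, adjusted p = 0.0254) passed the p threshold alone. The exception beyond the other end of the Hoxa cluster was Evx1, the even-skipped homeobox gene 52.6 kb from Hoxa13 by start site. Evx1 had 0 counts in all 3 Dlx5CE-E12.5 libraries and 14 and 58 counts in the Fgfr3CE-E12.5 libraries, at least 4.77-fold higher (edgeR adjusted p = 0.0375). The bound was 1.9-fold with replicate 2 alone and 7.65-fold with replicate 3 alone. The order of the Fgfr3CE-E12.5 libraries was opposite to that of Hoxa13, which was higher in replicate 2. Among the other homeobox genes of the body axis, 4 of 11 listed were tested, and Meox1 (-1.52, edgeR adjusted p = 0.0369) and Meox2 (-3.28, edgeR adjusted p = 0.00114), genes of the somites, fell in Fgfr3CE-E12.5 cells.

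Cofactors that Hox proteins bind with on DNA were tested as a list of 9 TALE homeodomain genes. Of these, 3 fell and 0 rose in Fgfr3CE-E12.5 cells, where 10% and 13.3% of all features tested did. The median log2 fold change of the list was -0.02. Meis2 had 1605, 1061 and 1160 counts in Dlx5CE-E12.5 and 700 and 406 counts in Fgfr3CE-E12.5 libraries and fell by 2.48 on the log2 scale (SE 0.27, edgeR adjusted p = 0.00043). Meis1, also a gene of blood stem cells, fell by 1.53 (SE 0.24, edgeR adjusted p = 0.00243). In these genes both Fgfr3CE-E12.5 libraries were below the Dlx5CE-E12.5 libraries in CPM. Meis3 and Pknox1 had log2 fold changes of 0.00 and -0.02, at mean levels of 63.8 and 42.1 CPM in Dlx5CE-E12.5 cells. The called Hox genes were thus higher and the called cofactors lower in Fgfr3CE-E12.5 cells. This contrast holds for the called genes only. Hoxc4, Hoxc9 and Hoxc10, which passed the p threshold alone, were lower, and 20 of the 34 members had negative and 14 positive log2 fold changes. The 14 markers of blood progenitors, a list that holds Meis1, summed to 645 to 1350 CPM in Dlx5CE-E12.5 libraries and to 2310 and 4420 CPM in Fgfr3CE-E12.5 libraries, with 7 called higher and 1, Meis1, lower.

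Of 15 limb position genes tested, 5 rose and 2 fell in Fgfr3CE-E12.5 cells, where 13.3% and 10% of all features did. The median log2 fold change of the list was 0.09. Tbx4, the hindlimb T-box gene, had 0, 10 and 4 counts in Dlx5CE-E12.5 and 92 and 220 counts in Fgfr3CE-E12.5 libraries and rose by 3.61 (SE 1.13, edgeR adjusted p = 0.0422). Pitx1, the homeobox gene that sets hindlimb identity, rose by 1.27 (SE 0.32, edgeR adjusted p = 0.0193), from 12.6 ± 3.32 CPM (SD, n = 3) to 30.4 ± 13 CPM (SD, n = 2). Tbx5, the forelimb T-box gene, had 72, 13 and 0 counts in the Dlx5CE-E12.5 libraries and 0 in both Fgfr3CE-E12.5 libraries, and it was not called (edgeR adjusted p = 0.0532). Its counts came mostly from Dlx5CE-E12.5 replicate 1. Tbx2 rose by 2.82 (SE 0.37, edgeR adjusted p = 0.00101), Irx5 by 2.55 (SE 0.22, edgeR adjusted p = 0.00014) and Irx3 by 1.36 (SE 0.21, edgeR adjusted p = 0.00199), while Tbx3 fell by 1.95 (SE 0.44, edgeR adjusted p = 0.0112). Shox2, a gene of the upper limb segment, fell by 1.36 (SE 0.14, edgeR adjusted p = 0.000395), from 195 ± 13.5 CPM (SD, n = 3) to 76.3 ± 1.76 CPM (SD, n = 2).

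Regulators that hold Hox clusters silent or active were tested as a list. Of 25 chromatin genes tested, 10 rose and 3 fell in Fgfr3CE-E12.5 cells, where 13.3% and 10% of all features did. The median log2 fold change of the list was 0.66. The genes that rose included the Polycomb genes Ezh2 (1.18) and Phc2 (3.18), the insulator gene Ctcf (1.95), and Ash2l (1.99) and Psip1 (2.76), whose proteins act with the Kmt2 methyltransferases. By edgeR's test the adjusted p of these 5 genes lay between 2.7e-05 for Phc2 and 0.00115 for Ezh2. Kdm6b, which encodes a demethylase that removes the Polycomb mark, fell by 3.02 (SE 0.30, edgeR adjusted p = 0.000287), and Kmt2a, which encodes a methyltransferase that keeps Hox genes active, fell by 1.21 (SE 0.20, edgeR adjusted p = 0.00312). The third gene that fell was the Polycomb gene Phc3, by 1.25 (SE 0.20, edgeR adjusted p = 0.00234). Of 11 genes of retinoid and Gdf11 signalling, which act upstream of Hox genes in the embryo, 3 rose and 1 fell. Of all features tested 13.3% rose and 10% fell. Rarg (-0.96, edgeR adjusted p = 0.00208) and Gdf11 (-0.86, edgeR adjusted p = 0.029) were lower in Fgfr3CE-E12.5 cells and passed the p threshold alone. Aldh1a2 (1.38, edgeR adjusted p = 0.0234) and Aldh1a3 (1.53, edgeR adjusted p = 0.0188), which encode enzymes that make retinoic acid, rose, as did Acvr2b, which encodes a Gdf11 receptor (2.52, edgeR adjusted p = 0.00584), and Rarb, which encodes a retinoic acid receptor, fell by 2.15 (edgeR adjusted p = 0.0109). The members and these lists were not compared by a test, and whether these regulators act on the Hox genes in these cells was not tested.

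**Figure D5:**
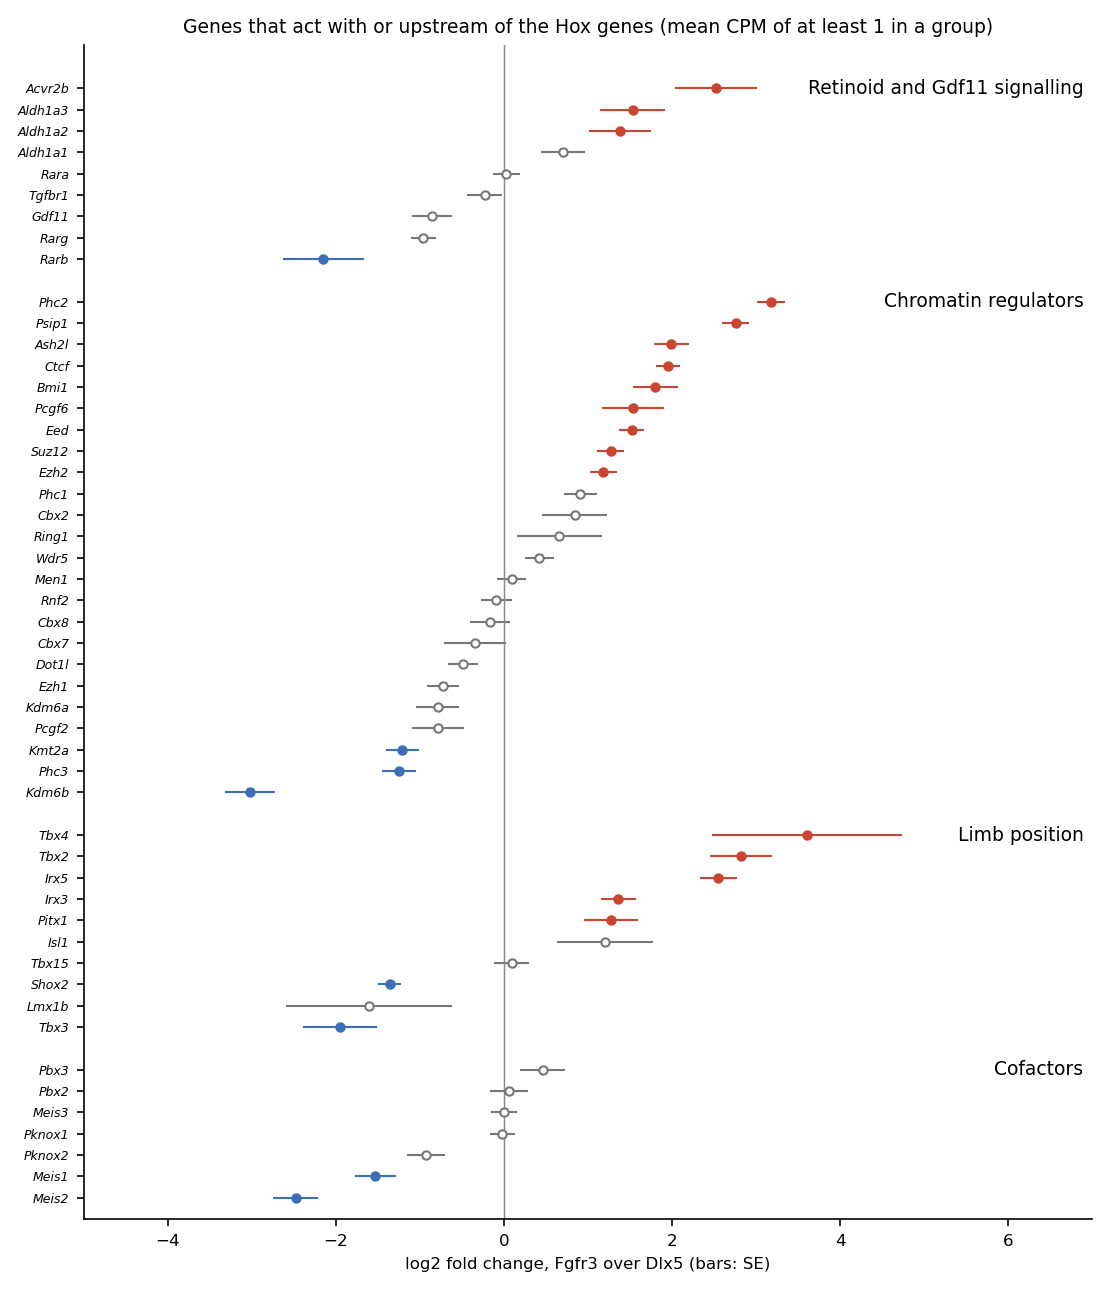
Log2 fold change of Fgfr3CE-E12.5 over Dlx5CE-E12.5 cells, with SE as bars, for cofactor, limb position, chromatin and retinoid or Gdf11 genes with a mean CPM of at least 1 in a group and counts in both groups. Filled red circles were called higher in Fgfr3CE-E12.5 and filled blue circles higher in Dlx5CE-E12.5 cells, and open circles were not called. Meis2 and Meis1 lie at the lower end of the cofactors, and Tbx4 at the upper end of the limb position genes.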

How the data were processed

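Cells were sorted from femurs and libraries were made with SMART-Seq v4 and Nextera XT kits, which do not mark strand. The authors aligned the reads to mm10 and deposited gene counts without normalization on Ensembl genes with reporter sequences added. The submitters' processing notes list TopHat2 2.0.13, Bowtie2 2.2.1 and HTSeq. The deposited normalized and rlog values were not used.

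Symbols, gene types and coordinates came from GENCODE M21 on GRCm38, which matched 29996 of 30046 features. The 17120 protein-coding genes and reporters with at least 1 count in at least 1 library entered a model in edgeR 4.0.16 (R 4.3.3) with TMM normalization, lineage as the only term and the quasi-likelihood test. The Benjamini-Hochberg adjustment ran over all 17120. Calls needed an adjusted p under 0.05 and a change of more than 1 on the log2 scale. Library totals of 22035650 to 58166285 counts make the 5 libraries, rather than depth, the main limit for members above a few CPM. A group at 0 was set to a floor of 3 counts in each library. Ratios of genes with 1 to 3 counts in a group carry exact binomial intervals, which cover counting error only. Values per kb use the union of a gene's exons. DESeq2 1.42.0, edgeR's exact test, glmTreat, other scalings and filters, GC and length trends, a replicate block and leaving out each library were alternatives. Members with a mean CPM of at least 1 in a group, or called, were named with full statistics. In the other lists up to 6 called genes were named, with Tbx4, Pitx1, Tbx5, Meis1, Meis2, Kmt2a, Ezh2 and Ptprc in any case. Phc3 was named after its values were seen. Some genes that meet this rule are not reported here by name, though counts, sums and medians include them. The flanking genes Skap2 and Mtx2, the uncalled Meis3, Pknox1, Rarg and Gdf11, and Hotair were chosen after their values were seen. The markers Col2a1, Sox9 and Col11a1 were also chosen in this way. The members and lists were chosen with earlier results of these data known. The fit was tested on simulated counts. Figures were drawn with matplotlib.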

Additional observations from a re-analysis of the deposited data

How the results depend on the processing

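The call of Hoxa11 held under 15 alternatives and that of Hoxa13 under 14. The number of Hox genes called higher in Fgfr3CE-E12.5 cells was 2, and it was 1 with a filter of 10 CPM (Hoxa13 was not tested) and 1 with glmTreat against 2-fold (Hoxa11 was not called), while edgeR's exact test and the fit of all features gave 3, with Hoxc12 added. Leaving out each library in turn gave 2 to 2. The number called higher in Dlx5CE-E12.5 cells was 0, and it was 1 with edgeR's exact test, 2 with DESeq2's Wald test, 4 with the GC trend removed, 4 with the length trend removed and 3 without a fold threshold. Leaving out each library in turn gave 0 to 3 for this number, with 2 without Dlx5CE-E12.5 replicate 1 (Hoxc9 and Hoxc11) and 3 without Fgfr3CE-E12.5 replicate 2 (Hoxc4, Hoxc10 and Hoxd8), where the lone Fgfr3CE-E12.5 library is assumed to vary like the Dlx5CE-E12.5 libraries. The causes were not tested.

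Replicate numbers 2 and 3 occur in both lineages but name different pools, and the deviations of same-numbered libraries from their group means correlated at 0.09 and -0.05 over 13235 genes. With the replicate block, 2 genes were called higher in Fgfr3CE-E12.5 and 2 in Dlx5CE-E12.5 cells, Hoxc6 (-1.29) and Hoxc9 (-1.03).

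Changes of sign occurred in genes that were not called. Hoxa2 was at 0.12 under library size alone, 0.12 with all features, 0.06 without Dlx5CE-E12.5 replicate 1 and 0.62 without Fgfr3CE-E12.5 replicate 3. Hoxa4 was at -0.09 with the GC trend removed. Hoxa5 was at -0.07 with the length trend removed and -0.17 without Fgfr3CE-E12.5 replicate 2. Hoxa10 was at 0.04 without Fgfr3CE-E12.5 replicate 3. Hoxc5 was at 0.06 under library size alone, 0.09 with all features and 0.06 without Dlx5CE-E12.5 replicate 2. Over the fits that leave out a library, the values ran from -1.40 to 0.62 for Hoxa2, -0.17 to 0.53 for Hoxa5, -0.54 to 0.04 for Hoxa10 and -0.29 to 0.06 for Hoxc5. Library size alone moved the median of the 13235 genes at 1 CPM or more from 0.03 to 0.21 and that of the Hox genes from -0.22 to -0.04, so the Hox genes stayed below the median of all genes. All features gave medians of 0.22 and -0.03, the GC trend -0.09 and -0.38, and the length trend -0.12 and -0.46. Library size alone called 2697 genes higher in Fgfr3CE-E12.5 and 1381 in Dlx5CE-E12.5 cells, against 2278 and 1719. With all features, 3168 and 4591 features were called.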
